A study of Mus musculus with 13 samples.

Results

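Krt79 cells of the newborn hair follicle were taken from single-cell RNA counts of mouse back epidermis at postnatal day 0 (P0). Krt79 encodes a type II keratin of the upper follicle. A cell was counted as a Krt79 cell when it held at least 2 Krt79 unique molecular identifiers (UMIs, the counted RNA molecules) making at least 3 per 10,000 of its UMIs, with Krt17 at 5 or more per 10,000, the inner root sheath keratins Krt27 and Krt28 together under 5, and Scd1, an enzyme of sebaceous lipid synthesis, under 10. Cells were first kept if they had between 900 and 7700 genes with a UMI and no more than 10% of UMIs from mitochondrial genes. The members were thus chosen by their measured Krt79, Krt17, Krt27, Krt28 and Scd1 counts, which gave 3428 Krt79 cells among 34852 kept P0 cells. The deposited series holds 97363 cell barcodes over all ages.

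The P0 material was the epidermis of the back, separated from the dermis, of C57BL/6 mice that were wild type (WT, 2 libraries) or lacked the transcription factor gene Grhl3 (Grhl3-/-, 2 libraries). The methods describe these WT and Grhl3-/- animals as littermates. An additional WT P0 library, called the first WT library here, was made with the version 1 chemistry, and its barcodes have 14 rather than 16 bases. It entered no test unless stated. Back skin at embryonic days E14.5 and E16.5, with 2 WT and 2 Grhl3-/- libraries at each age, came from whole skin and entered no test across genes. All Grhl3-/- embryos had spina bifida, and skin was taken between the forelimbs, away from it. The mutation was present in the whole animal, so that the follicle, the surrounding epidermis and the dermis all lacked the gene.

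The upper hair follicle comprises the infundibulum, which opens to the skin surface, the junctional zone with the isthmus, and the opening of the sebaceous gland. Lrig1, a membrane inhibitor of EGF receptor signalling, marks stem cells of the junctional zone, and Gata6 marks the sebaceous duct and the junctional zone. Krt79 cells are known to move upward and line the canal through which the hair will emerge, and cells of that lining cornify as the surface epidermis does. Krt17 is a type I keratin found throughout the follicle. Grhl3 belongs to the Grainyhead family, which activates barrier genes in the late layers of the epidermis.

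Several properties of the libraries bear on what follows. The methods name 1 male and 1 female per genotype and age, yet all 5 P0 libraries held Y-chromosome transcripts. Ddx3y was at 41.3 to 61.5 CPM (UMIs of a gene per 1000000 UMIs) in Krt79 cells. Xist, a transcript of the inactive X chromosome of females, had 4 and 1 UMIs there in WT, 0 and 0 in Grhl3-/- and 0 in the first WT library. Sex was therefore not used. Between 57 and 99 barcodes were shared by any pair of the 4 later P0 libraries and 0 with the first. Kept cells held 49195600 to 105581000 UMIs per library, of which Krt79 cells held 8651100 to 10549300. Grhl3 itself was at 12.5 and 15.3 CPM in the WT Krt79 cells, 8.09 and 9.59 in the Grhl3-/- ones and 9.22 in the first WT library (log2 change -0.53, edgeR adjusted p = 0.117). Counts come from the 3' end of transcripts, which may lie outside the deleted exons, so this does not check the labels. Free RNA was gauged in melanocytes, which lack keratins, taken as cells with Pmel, Mlana and Dct together at 100 or more per 10,000. They held Krt79 at 122 and 138 CPM in WT, 15.8 and 52.1 CPM in Grhl3-/- and 106 CPM in the first WT library. Of the melanocytes, 5.96% and 3.93%, 0.36% and 1.77%, and 7.89% passed the limit on Krt79. Among them 28 and 8, 0 and 8, and 11 cells were also Krt79 cells, and doublets were not told apart from free RNA.

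Values for single libraries are given below in the order WT 1 and WT 2, Grhl3-/- 1 and Grhl3-/- 2, and the first WT library. CPM are UMIs summed over the Krt79 cells, or over the class named, of a library and divided by all UMIs of those cells. As counts of transcript ends, they are not divided by gene length.

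Krt79 levels ran continuously from the limit upward, with no gap. The median Krt79 cell held 18.4 and 24.1 Krt79 UMIs per 10,000 in WT, 9.46 and 10.4 in Grhl3-/- and 13.6 in the first WT library. The highest cells held 323 and 504, 207 and 287, and 415. Levels of 10 per 10,000 or more were reached by 64.1% and 67.9% of WT Krt79 cells, 47.7% and 52.3% of Grhl3-/- ones and 57.9% in the first WT library, a share that was lower in both Grhl3-/- libraries. Krt79 is a gene of the rule, so these values describe the members and are not tested. Krt79 cells held 75.9% to 83.2% of all Krt79 UMIs of kept cells.

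**Figure D1:**
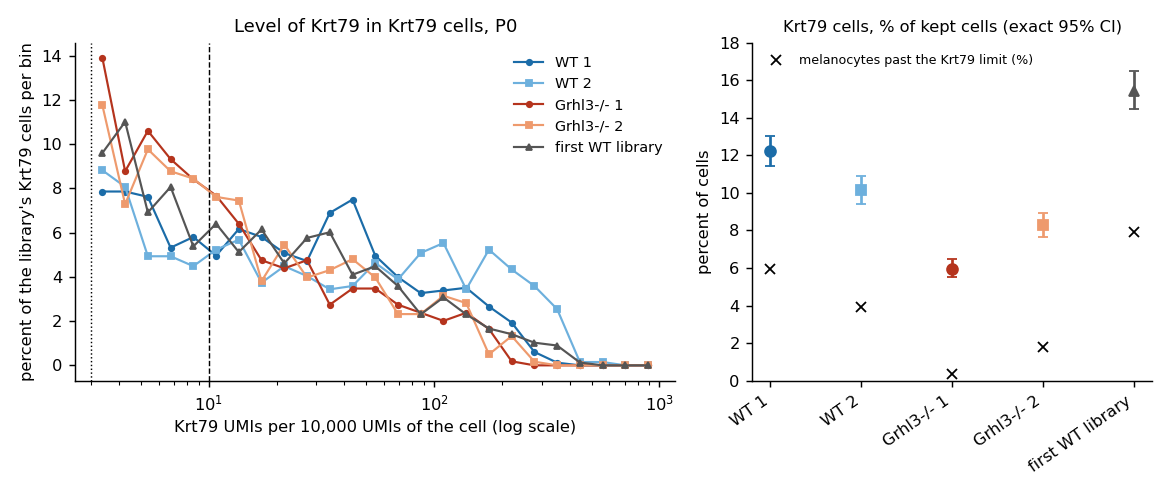
Left, the percent of each library's Krt79 cells (vertical axis) in bins of the Krt79 level in UMIs per 10,000 UMIs of the cell (log axis), with the limit of 3 dotted and the level of 10 dashed. Right, Krt79 cells as a percent of kept cells with exact 95% intervals, with crosses for the percent of melanocytes past the Krt79 limit; Grhl3-/- libraries lie at 5.97% and 8.29%, below the WT libraries at 12.2% and 10.2%.

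Cells near the limit differed from cells well above it in genes the rule did not use. In cells with 3 to 6 Krt79 UMIs per 10,000, numbering 146 to 215 a library, Cst6, a cystatin protease inhibitor of cornifying cells, was at 33.4 and 72.8 CPM, 27.9 and 15.1 CPM, and 40.3 CPM. In cells at 10 or more it was at 200 and 513, 338 and 459, and 1180 CPM. Alox12e, an epidermal lipoxygenase, went from 25.9 and 9.78, 20.7 and 27.4, and 9.48 CPM to 159 and 139, 153 and 210, and 82.3 CPM. Dcn, which encodes the small proteoglycan decorin, went the other way, from 319 and 472, 251 and 258, and 386 CPM to 131 and 152, 118 and 136, and 129 CPM. All 3 differences had the same direction in all 5 libraries. Just outside, 1075 to 1293 cells a library passed the other limits and held a Krt79 UMI but did not meet the Krt79 limit, with Cst6 at 30.9 and 23.5, 10.4 and 20.3, and 62.4 CPM, below the cells at 10 or more in every library. The level of 10 was therefore used as an alternative limit in the comparison of genotypes.

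**Figure D2:**
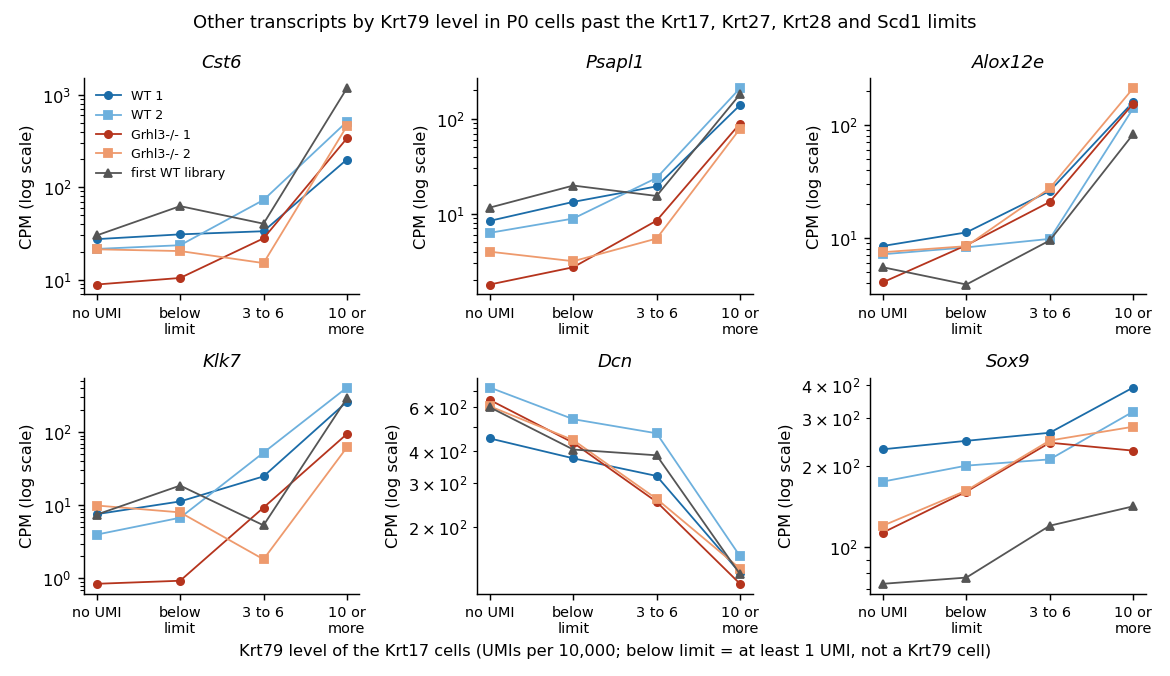
CPM (log axis) of 6 genes in cells past the Krt17, Krt27, Krt28 and Scd1 limits, by Krt79 level of the cell, one line per P0 library. Cst6, Psapl1, Alox12e and Klk7 are higher, and Dcn lower, at 10 or more Krt79 UMIs per 10,000 than at 3 to 6 in all 5 libraries.

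The label of upper follicle was checked with Lrig1, Gata6, Plet1 and Lgr6, all known from the upper follicle. After thinning each cell to 3000 UMIs, Lrig1 was detected in 20.2% and 19.3% of WT Krt79 cells, 27.1% and 26% of Grhl3-/- ones and 14.7% in the first WT library. Among other Krt17 cells, which pass the same limits but hold no Krt79 UMI (12844 cells), the shares were 15.6% and 14.8%, 13.5% and 12.3%, and 10.6%. Melanocytes stood at 1.5% to 2.76%, so Lrig1 was above the free RNA in both keratinocyte classes. Unthinned, 48.6% and 49.3%, 59.8% and 60.4%, and 42.8% of Krt79 cells held an Lrig1 UMI, at median depths of 8052 to 11025 UMIs. Gata6 was detected after thinning in 6.65% and 8.82%, 3.11% and 4.64%, and 3.33% of Krt79 cells, against 0.61% and 0.97%, 0.12% and 0.24%, and 0.64% of other Krt17 cells. Plet1, a surface antigen gene, was detected in 18.3% and 18.1%, 18.6% and 16.6%, and 22.9% of Krt79 cells, against 12.8% and 12.9%, 13.2% and 10.0%, and 21.6% of other Krt17 cells. Lgr6, a stem cell receptor gene, did not separate the classes, at 25.8% and 19.4%, 21.8% and 18.2%, and 16.8% of Krt79 cells against 25.6% and 26.6%, 19.0% and 16.7%, and 14.6% of other Krt17 cells. Lrig1 and Plet1 thus differed between the 2 classes by degree, Gata6 was found in few cells of either but more often in Krt79 cells, and Lgr6 was lower in WT 2. In interfollicular keratinocytes, defined below, Lrig1, Gata6 and Lgr6 were detected less often than in Krt79 cells in every library. Plet1 was detected there in 8.58% and 9.62%, 19.9% and 13.8%, and 15.7%, more often than in Krt79 cells in Grhl3-/- 1.

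To see what else set Krt79 cells apart, levels were compared with those of other Krt17 cells in each library. Melanocytes, as a gauge of free RNA, held Krt17 at 436 and 367, 253 and 335, and 852 CPM. The Krt17 limit of the rule lay within this range. How many other Krt17 cells came from outside the follicle was not tested. A gene was called when it was at least 2-fold apart in the same direction in all 5 libraries. Ratios were log2 ratios of CPM + 10, with at least 50 CPM on average in the higher class. Of 2949 genes, 32 were higher (1.09%, Krt79 among them) and 1 was lower (0.0339%). The classes were cut from the same cells, so these are descriptions with no test. The median ratio of all genes was -0.06 on the log2 scale.

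After Krt79 itself Klk7 stood highest, with Cst6 at the same median. Klk7, a protease that cleaves the desmosomes of cornified cells, was at 185 and 312 CPM in WT, 55.6 and 36.6 CPM in Grhl3-/- and 201 CPM in the first WT library, against 7.58 and 3.98, 0.845 and 9.94, and 7.48 CPM in other Krt17 cells (median log2 ratio 3.47, range 1.22 to 4.53). Cst6 was at 148 and 395, 198 and 267, and 815 CPM against 27.4 and 21.5, 8.84 and 21.2, and 30.1 CPM (3.47, range 2.07 to 4.36). Alox12e was at 118 and 106, 97.1 and 132, and 59.3 CPM against 8.47 and 7.16, 4.05 and 7.46, and 5.49 CPM (2.79, range 2.16 to 3.02). Psapl1, a prosaposin-like gene, stood at a median log2 ratio of 2.68 and Sdr16c6, a short-chain dehydrogenase, at 2.64 (range 2.26 to 3.07). Rhov, a small GTPase, stood at 2.48, the lipid droplet gene Cidea at 2.29, the adhesion gene Pvrl4 (Nectin4) at 2.16 and the small heat shock protein gene Hspb1 at 2.08. The gene 8430408G22Rik (Depp1) stood at 3.01, but at only 1.01 in the first WT library. The rest of the 32 were Nebl, Cdkn1a, Penk, Zfp750, Calml3, Mgst1, Sdr16c5, Sepp1, Sbsn, Pvrl3, Grhl1, Igfbp4, Sult2b1, Efna3, Cebpa, Apoe, Idh1, Fam84a, Hopx, Lima1 and Alcam. Zfp750 and Grhl1 encode transcription factors of epidermal differentiation, and Sbsn, Calml3 and Sult2b1 are genes of the suprabasal layers.

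Dcn alone was lower, at 182 and 215, 174 and 182, and 191 CPM against 450 and 720, 641 and 606, and 600 CPM (median log2 ratio -1.68). The paper gives Dcn as a marker of a basal population of the interfollicular epidermis. Whether the difference lies within the follicle was not tested. No Krt79 library reached the lowest other-Krt17 value. By the gene lists, and leaving out the rule genes Krt79 and Krt17, 3 of 10 upper follicle genes above the level limit were higher (Cst6, Alcam and Cidea), beside 1.09% of all genes. The same held for 3 of 10 spinous and granular genes (Klk7, Sbsn and Calml3) and 2 of 4 sebaceous genes (Cidea and Mgst1). Of 29 cell cycle, 13 Wnt and 8 outer root sheath and bulge genes 0 were higher, a count that the share over all genes would also give.

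**Figure D3:**
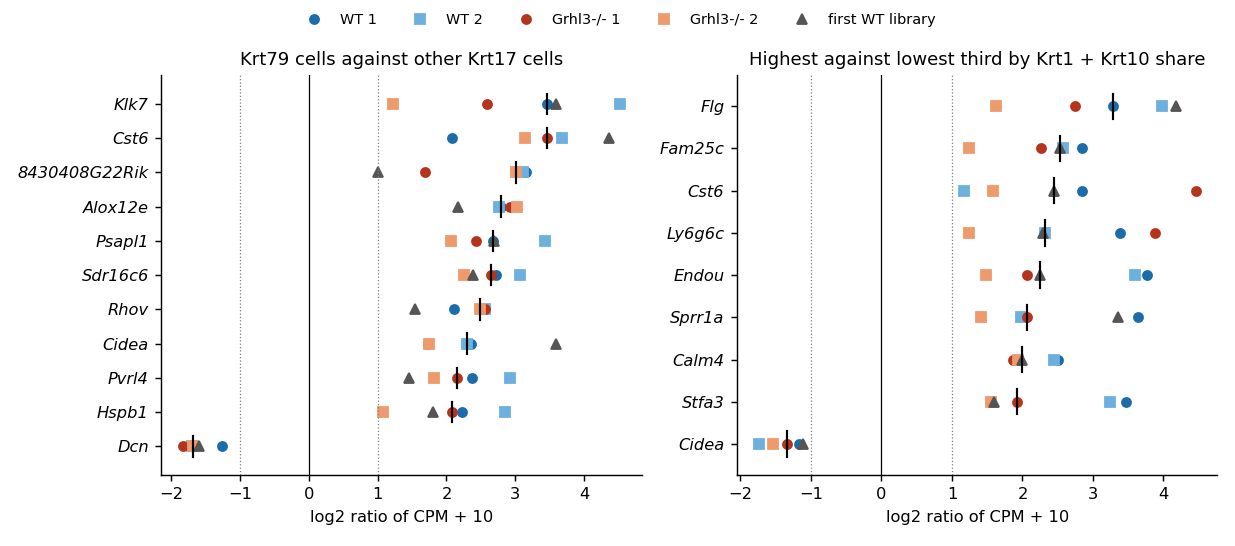
Log2 ratios of CPM + 10 by library, with the median as a tick and 2-fold marked by dotted lines. Left, Krt79 cells against other Krt17 cells, where Dcn lies on the lower side in all 5 libraries; right, Krt79 cells in the highest against the lowest tertile of the Krt1 and Krt10 share, where Flg leads and Cidea is lower.

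Interfollicular keratinocytes were defined as cells with Krt14, Krt5, Krt1 and Krt10 together at 100 or more per 10,000, Krt17 under 5, no Krt79 UMI and few melanocyte or immune transcripts (2294 cells). Against them 89 of 2928 genes were higher in Krt79 cells (3.04%) and 58 were lower (1.98%). Krt79 and Krt17 are among the 89 through the definitions of the classes. Of the others the adhesion molecule gene Alcam stood at a median log2 ratio of 4.07, the Wnt and BMP modulator gene Sostdc1 at 3.20, the parathyroid hormone-like gene Pthlh at 3.20, and the follicle stem cell transcription factor genes Sox9 and Lhx2 at 3.18 and 3.16. Nrp2 stood at 3.17 and Ncam1 at 3.14. Dct (3.28) is a melanocyte gene that the definition of the interfollicular class kept low. Lower genes were Them5 (-3.95), Serpinb12 (-3.67) and BC100530 (-3.47), beside Krt1 (-3.70) and Krt10 (-3.53), which the definition used. BC100530 has near-identical relatives among the stefins, so its reads may be shared.

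Scd1 cells, at 10 or more Scd1 UMIs per 10,000 and at least 2 UMIs, were few (185 cells). They numbered 58 and 52 in WT, 20 and 10 in Grhl3-/- and 45 in the first WT library. In Grhl3-/- 2 they held Calm4 and Alox12e at 0 CPM, so ratios there rest on very few cells. Against them 133 of 3311 genes were higher in Krt79 cells (4.02%) and 323 were lower (9.76%). Krt17 on the higher and Scd1 on the lower side are genes of the rule. The higher genes included Ly6d (median log2 ratio 3.16), Capns2 (3.13), Calm4 (3.05), Alox12e (2.96), Krt1 (2.83), Krt10 (2.46) and Pvrl3, also called Nectin3 (2.35). Apart from Scd1 the lowest were the cytochrome P450 gene Cyp2g1 (-6.24) and 4 genes of fatty acid synthesis and hydroxylation, Elovl3 (-6.31), Fa2h (-6.25), Elovl6 (-6.10) and Elovl4 (-5.93). Of 16 sebaceous genes above the level limit 15 were lower, and of 28 lipid synthesis genes 17. Of the 32 genes higher than in other Krt17 cells, 3 were also higher than in both remaining classes, namely Alox12e, Nebl and Pvrl3, which were singled out after their values were seen.

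Krt79 cells differed among themselves in keratin content. The share of Krt1 and Krt10 among the UMIs of Krt1, Krt10, Krt5 and Krt14 was used to cut each library's cells with at least 10 such UMIs into tertiles of 175 to 267 cells. The median share was 0.962% to 6.86% in the lowest tertile and 15.1% to 48.8% in the highest. Of 2883 genes, 15 were higher in the highest tertile (0.52%) and 1 was lower (0.0347%), by the same limits and again with no test. Krt1 and Krt10, which set the tertiles, are among the 15. Flg, the gene of filaggrin in the granular layer, was at 319 and 341, 60.3 and 24.9, and 197 CPM in the highest tertile against 23.8 and 12.2, 0.44 and 1.3, and 1.48 CPM in the lowest (median log2 ratio 3.28). Fam25c (2.53), Cst6 (2.45), Ly6g6c (2.33), Endou (2.24), Sprr1a (2.06), Calm4 (2.00) and Stfa3 (1.92) followed. Stfa3 belongs to a family of near-identical stefins and is uncertain. Cidea ran against them, at 38.6 and 20.4, 11.8 and 5.54, and 97.3 CPM in the highest tertile and 99.3 and 91.5, 45.1 and 35.2, and 222 CPM in the lowest (-1.34).

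The P0 libraries differed in how many Krt79 cells they held. Krt79 cells made 12.2% of 6765 kept cells (exact 95% interval 11.5% to 13.0%) and 10.2% of 6589 (9.43% to 10.9%) in WT. They made 5.97% of 9157 (5.5% to 6.48%) and 8.29% of 7283 (7.67% to 8.95%) in Grhl3-/-, and 15.4% of 5058 (14.46% to 16.47%) in the first WT library. The intervals cover counting error only. Both Grhl3-/- libraries lay below all 3 WT libraries, and the difference of the means was -4.06 percentage points (WT 11.2%, Grhl3-/- 7.13%). With 2 libraries against 2 the exact two-sided permutation test gives p = 0.333, the smallest it can give, so the design cannot pass a threshold of 0.05. With the first WT library added the difference was -5.47 points (exact permutation p = 0.2). At a Krt79 level of 10 or more the shares were 7.83% and 6.89%, 2.85% and 4.34%, and 8.94%, and the WT mean exceeded the Grhl3-/- mean 2.05-fold in place of 1.57-fold. Krt79 RNA in melanocytes was also lower in the Grhl3-/- libraries, as given above. In T cells, 46 to 130 a library, Krt79 was at 77.4 and 139, 270 and 102, and 90.3 CPM. The Krt79 limit was passed by 8.47% and 3.49%, 1.55% and 0.77%, and 6.52% of T cells. The part of free RNA in the share was not tested.

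Cells of the embryonic libraries were kept at 600 to 4800 genes, with the other limits as at P0. At E16.5 the rule held for 55 and 44 cells in WT and 30 and 33 cells in Grhl3-/- libraries of whole skin. At E14.5 it held for 2 and 0 cells in WT and 1 and 13 in Grhl3-/-. These were too few for a test across genes.

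Grhl3-/- and WT Krt79 cells were then compared gene by gene with edgeR's quasi-likelihood test on UMIs summed per library. Of 12202 genes tested, 1173 were higher in Grhl3-/- (9.61%) and 1031 lower (8.45%) at an adjusted p under 0.05, and the groups did not overlap for 65.2% of all genes tested. Leaving out each of the 4 libraries in turn, 209 of the higher and 181 of the lower genes were called every time, and the counts went from 857 higher and 763 lower without WT 2 to 394 and 434 without WT 1, 497 and 518 without Grhl3-/- 1, and 306 and 241 without Grhl3-/- 2. On the log2 scale of CPM + 10 the first WT library was nearer the WT mean than the Grhl3-/- mean for 20.4% of the higher and 25.1% of the lower genes, and it lay on the WT side of both Grhl3-/- libraries for 30.4% and 44.7%. With it as a WT library, 0 genes were called (306 higher and 482 lower at an unadjusted p under 0.05), as was the case without a filter on low counts (2176 and 2019 unadjusted, while DESeq2 with its own filter called 955 and 727). It also differs in chemistry, so chemistry and animal cannot be told apart in it.

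Several genes of the granular layer and of the cornified envelope fell in Grhl3-/- Krt79 cells. Flg was at 103 and 121 CPM in WT and 24.2 and 11.7 CPM in Grhl3-/-, with 79 CPM in the first WT library (log2 change -2.52, SE 0.30, edgeR adjusted p = 0.00497). Klk7 was at 185 and 312, 55.6 and 36.6, and 201 CPM (-2.31, SE 0.30, edgeR adjusted p = 0.00574). Sprr1a, a cornified envelope precursor, was at 61.3 and 129, 14.2 and 16.6, and 150 CPM (-2.51, SE 0.34, edgeR adjusted p = 0.00631). In each of these 3 genes all WT libraries, the first included, lay above both Grhl3-/- libraries. In interfollicular keratinocytes Flg changed by -4.52, Klk7 by -3.68 and Sprr1a by -1.01. The changes in other Krt17 cells were -3.75, -0.016 and -0.33. For these 3 genes no difference between classes passed the edgeR test. Casp14, the caspase of cornification, fell by 2.57 on the log2 scale (24.0 and 35.8, 5.90 and 3.42, and 12.4 CPM). Spink5, an inhibitor of kallikreins, fell by 2.22 (40.9 and 56.6, 8.32 and 11, and 10.8 CPM), with the first WT library among the Grhl3-/- values. Of the 27 spinous and granular genes of the fixed list, 22 were tested, of which 14 were lower and 0 higher, beside 8.45% lower among all genes. The median change of the 22 was -1.29, against -0.015 for all genes. Without each library in turn 7 of the 14 were still called, namely Flg, Tgm1, Casp14, Hrnr, Rptn, Klk7 and Spink5. The others were Sbsn, Calml3, Dsg1a, Lor, Ivl, Klk5 and Asprv1.

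Several measures moved with that list. WT libraries held more Krt79 cells with Krt1 and Krt10 at 10 or more per 10,000: 31.3% and 24.1%, 12.4% and 7.78%, and 66.2%. Melanocytes held Krt1 at 340 and 216, 65.9 and 147, and 657 CPM. They held Krt10 at 451 and 322, 95.8 and 210, and 1068 CPM. The limit thus lay closer to this level in the later WT libraries than in the Grhl3-/- ones. In the first WT library Krt10 alone was past the limit in melanocytes, so its share rests on a limit below the free RNA. The part of free RNA in these shares was not tested. Among Krt79 cells under that level, 10 of 21 spinous and granular genes were lower and 0 higher (median -0.90), beside 10.4% lower and 11.5% higher among all genes tested in those cells. Among those at a Krt79 level of 10 or more, 13 of 22 were lower and 0 higher (median -1.09), beside 7.58% and 8.25%. In such cells Klk7 was at 261 and 409, 94.6 and 62.1, and 292 CPM. Melanocytes, as a gauge of free RNA, held the listed genes at a summed 1278 and 922, 392 and 583, and 2531 CPM, against 5902 and 7861, 4859 and 3245, and 10492 CPM in Krt79 cells. Flg in melanocytes was at 50.2 and 20.2, 1.84 and 1.27, and 5.2 CPM, and the part of free RNA in its WT level was not tested. Klk7 in melanocytes did not exceed 7.26 CPM.

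Promoters of 4 of these genes are shown. Krt79 is the gene of the rule, and Klk7 had the highest median ratio to other Krt17 cells after it. Among genes named for a mean log2 CPM of 5 or more and no overlap of the groups, Krtap17-1 had the largest fall in Grhl3-/-. Flg had the largest fall of the granular genes under the same limits. Each promoter runs from 250 bases before to 50 bases after the RefSeq start on mouse build GRCm38.p6 and is written 5' to 3' on the strand of the gene. Capitals mark a TATA box match (TATAAA on either strand) or a Grainyhead site (AACCNGTT on either strand).
Krt79, chr15:101940275-101940574, minus strand: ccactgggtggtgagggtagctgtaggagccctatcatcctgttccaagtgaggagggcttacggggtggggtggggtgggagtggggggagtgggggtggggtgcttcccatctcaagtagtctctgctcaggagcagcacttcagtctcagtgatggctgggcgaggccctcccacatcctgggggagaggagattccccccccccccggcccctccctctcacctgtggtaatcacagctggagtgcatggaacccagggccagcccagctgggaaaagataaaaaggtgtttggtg
Klk7, chr7:43811044-43811343, plus strand: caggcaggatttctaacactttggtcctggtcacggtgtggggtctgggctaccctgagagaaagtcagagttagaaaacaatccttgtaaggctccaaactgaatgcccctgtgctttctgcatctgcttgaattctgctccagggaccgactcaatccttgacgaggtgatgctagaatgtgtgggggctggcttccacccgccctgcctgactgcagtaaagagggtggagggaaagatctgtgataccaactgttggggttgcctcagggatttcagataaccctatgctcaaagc
Flg, chr3:93273296-93273595, plus strand: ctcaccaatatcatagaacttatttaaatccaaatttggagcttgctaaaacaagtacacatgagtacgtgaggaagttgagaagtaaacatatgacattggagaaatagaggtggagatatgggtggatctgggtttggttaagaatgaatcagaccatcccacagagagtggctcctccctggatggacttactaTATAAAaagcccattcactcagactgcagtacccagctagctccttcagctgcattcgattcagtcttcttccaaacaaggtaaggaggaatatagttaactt
Krtap17-1, chr11:99993945-99994244, minus strand: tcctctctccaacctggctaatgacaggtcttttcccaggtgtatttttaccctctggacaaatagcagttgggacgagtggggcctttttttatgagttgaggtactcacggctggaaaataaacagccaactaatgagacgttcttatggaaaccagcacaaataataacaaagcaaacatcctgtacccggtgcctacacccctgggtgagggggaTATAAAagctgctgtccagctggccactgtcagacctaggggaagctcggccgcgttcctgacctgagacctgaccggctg
Flg holds TATAAA at position -53 and Krtap17-1 at -31, counted from the start, and neither Krt79 nor Klk7 holds a match. AACCNGTT was found in 1.40% of the matched promoters of genes lower in Grhl3-/- (11 of 786), 2.55% of those of higher genes (23 of 902) and 2.25% of all tested genes (208 of 9233), as a description of these windows. It was found in 2.35% of all 27025 promoters of the table. TATAAA was found in 11.6%, 9.76% and 8.51% of the same gene sets and in 15.7% of all promoters. Among genes higher in Krt79 cells than in other Krt17 cells, 4 of the 21 with a promoter held TATAAA (19.0%) and 0 held AACCNGTT.

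Krtap17-1, a keratin-associated protein gene of the hair shaft, fell most among genes named for a mean log2 CPM of 5 or more and no overlap of the groups. Outside these limits the lowest change in the spinous and granular list was -5.42. It was at 123 and 127 CPM in WT, 9.36 and 6.72 CPM in Grhl3-/- and 24.1 CPM in the first WT library (log2 change -3.84, SE 0.19, edgeR adjusted p = 0.000331). Other Krt17 cells held it at 147 and 187, 7.32 and 5.65, and 18.2 CPM, and melanocytes at 30.7 and 25.6, 0 and 1.45, and 11 CPM. The difference between the 2 Krt17 classes did not pass the test (edgeR adjusted p = 0.0969). Krt16, a keratin of the stressed epidermis, was at 126 and 73.9, 7.98 and 11.2, and 66.5 CPM (-3.25, SE 0.27, edgeR adjusted p = 0.0018). Its change in other Krt17 cells was -0.69 (edgeR adjusted p = 0.656), but the test of the difference between the classes gave an edgeR adjusted p of 0.21. Tsc22d3, a glucocorticoid-induced gene, was at 115 and 138, 19.2 and 24.0, and 8.19 CPM (-2.43, SE 0.17, edgeR adjusted p = 0.00105), with the first WT library below the Grhl3-/- ones. It changed by -3.08 in other Krt17 cells and by -2.89 in interfollicular keratinocytes. Ccer2 (-2.43) and Cyp2g1 (-2.41) fell, with the first WT library above both Grhl3-/- libraries. Ccer2 was at 79.1 and 108, 9.25 and 22.8, and 435 CPM in Krt79 cells and at 412 and 616, 135 and 5.60, and 32.9 CPM in melanocytes, and the part of free RNA in its change was not tested. Snhg9 (-2.27, edgeR adjusted p = 0.031) rested on WT 1, at 210 CPM against 46.4 CPM in WT 2, with 27.5 and 20.7 CPM in Grhl3-/- and 41.0 CPM in the first WT library, and was called in 1 of the 4 analyses that left out a library.

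Genes that rose included Odc1, the first enzyme of polyamine synthesis, at 19.8 and 21.5 CPM in WT, 93.5 and 109 CPM in Grhl3-/- and 68.4 CPM in the first WT library (log2 change 2.41, SE 0.15, edgeR adjusted p = 0.000811). Ldha, of lactate production, was at 158 and 171, 520 and 531, and 555 CPM (1.79, SE 0.14, edgeR adjusted p = 0.00156). Tpi1, of glycolysis, was at 133 and 156, 451 and 454, and 316 CPM (1.77, SE 0.15, edgeR adjusted p = 0.0018). The first WT library was thus as high as Grhl3-/- for Ldha and between the groups for Odc1 and Tpi1. Fosb, an immediate early gene, was at 13.7 and 25.4, 56.5 and 83.0, and 12.7 CPM (1.94, SE 0.29, edgeR adjusted p = 0.00755). Ramp1 (1.78), Galk1 (1.58) and 2810417H13Rik (Pclaf, 1.54) followed, but in each of them the first WT library, at 64.6, 86.1 and 281 CPM, lay above both Grhl3-/- libraries. In Gadd45b (1.68) it lay between the Grhl3-/- libraries and in Hist3h2ba (1.58) between the WT libraries. Other classes changed alike for Odc1, Ldha, Tpi1 and Fosb. In other Krt17 cells and interfollicular keratinocytes the log2 changes were 2.60 and 2.15 for Odc1, 1.94 and 1.53 for Ldha. They were 1.73 and 1.75 for Tpi1 and 2.31 and 2.11 for Fosb. For these genes no difference between classes passed the edgeR test. By contrast 2810417H13Rik rose more in interfollicular keratinocytes, by 2.74, and that difference passed (-1.19, edgeR adjusted p = 0.0212). Ramp1 rose by 0.84 in other Krt17 cells, a difference of 0.99 that did not pass (edgeR adjusted p = 0.0517). The largest value, Gm8730 (2.76), is a predicted gene near-identical to Rplp0, and reads of the 2 may be split differently between libraries. It moved alike in melanocytes, at 203 and 256, 1617 and 1349, and 126 CPM. Apart from Snhg9, the named genes were called without each of the 4 libraries in turn.

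**Figure D4:**
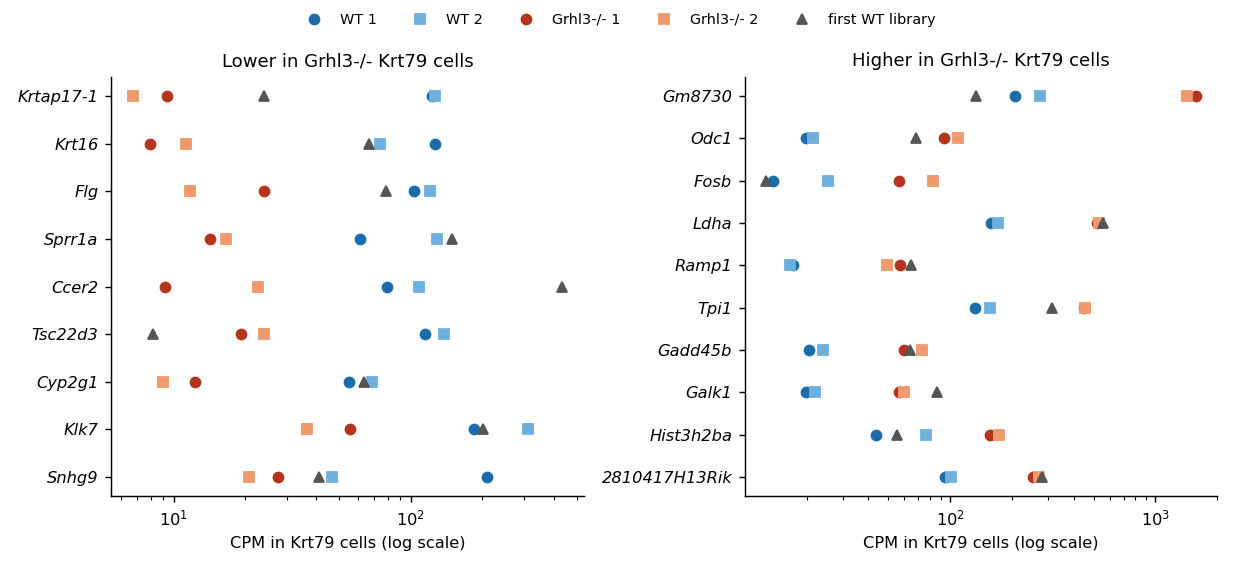
CPM in Krt79 cells (log axis) of the 9 named genes that fell (left) and the 10 that rose (right) in Grhl3-/-, one mark per P0 library. The first WT library lies on the WT side of both Grhl3-/- libraries for 8 of the 9 lower and 5 of the 10 higher genes, and nearer the WT mean for 6 and 3.

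Genes of the upper follicle list moved in both directions. Leaving out the rule genes Krt79 and Krt17, 16 were tested, of which 4 were lower and 3 higher (median -0.21), beside 8.45% and 9.61% of all genes. Gata6 fell by 1.39 (SE 0.19, edgeR adjusted p = 0.00672), from 28.7 and 35.7 CPM to 12.4 and 10.3 CPM, with 10.7 CPM in the first WT library. Defb6, a beta-defensin gene, was at 37.9 and 25.3, 7.51 and 2.09, and 0.683 CPM (-2.59, edgeR adjusted p = 0.00989). Only 1.33% and 2.39%, 0.91% and 0.66%, and 0.26% of Krt79 cells held a Defb6 UMI, so its values rest on few cells. Cidea was at 69.6 and 51.4, 27.5 and 26.2, and 159 CPM (-1.05). These 3 were called without each library in turn, while Aqp3 (-0.92) was not. Lrig1 was higher, at 94.9 and 84.4, 122 and 107, and 66.3 CPM (0.48, edgeR adjusted p = 0.044), but was called in 0 of the 4 analyses that left out a library, and Sostdc1 (1.02) and Klk10 (0.66) in 1 of 4 each. Of 16 sebaceous genes tested, 7 were lower and 0 higher (median -0.59), among them Scd3, Elovl3, Dgat2 and Far2, beside 8.45% lower among all genes. Melanocytes held the sebaceous list at a summed 534 and 600, 573 and 586, and 620 CPM. Krt79 cells held it at 550 and 509, 421 and 423, and 1128 CPM, and the part of free RNA was not tested. In cells at a Krt79 level of 10 or more, 4 of the 16 were lower and 1 higher (median -0.11), beside 7.58% and 8.25% of all genes.

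Of 26 genes of desmosomes and tight junctions, 9 were lower and 2 higher (median -0.34), beside 8.45% and 9.61% of all genes. The envelope protein gene Evpl was at 58.6 and 53.2, 22.8 and 14.3, and 23.8 CPM (-1.47, edgeR adjusted p = 0.00751) and was the only one of the 11 called without each library in turn. Desmoplakin (Dsp) was at 733 and 696, 375 and 301, and 176 CPM (-0.96), and Cldn1, a tight junction claudin, at 126 and 135, 72.9 and 61.6, and 56.4 CPM (-0.84). In the first WT library both were below the Grhl3-/- values. Of 13 basal keratinocyte genes, 3 were lower and 0 higher. They were Dst, which anchors keratin at hemidesmosomes (-1.19), Lamb3 (-0.66) and Trp63, the transcription factor p63 of basal cells (-0.90).

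Of 36 cell cycle genes tested, 17 were higher, 0 lower and 19 did not pass (median 0.43), beside 9.61% higher among all genes. Tyms was at 32.5 and 33.6, 66.2 and 80.7, and 151 CPM (1.27, edgeR adjusted p = 0.00443) and Dut at 59.7 and 62.7, 124 and 169, and 193 CPM (1.38, edgeR adjusted p = 0.0045). Both act in thymidine nucleotide synthesis. The 7 genes called without each library in turn were Mcm2, Rrm1, Tyms, Ccne1, Tk1, Clspn and Dut, of the S phase. The first WT library exceeded the Grhl3-/- libraries for all of these except Clspn, and Tyms in melanocytes was at 30.5 and 51.8, 81.1 and 78.3, and 147 CPM.

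Of 18 hypoxia and glycolysis genes, 12 were higher and 1, Hk2, was lower (median 0.91), beside 9.61% and 8.45% of all genes with a median of -0.015, and 8 of the 12 were called without each library in turn. Ldha in melanocytes went the same way, at 432 and 482, 1320 and 1365, and 1251 CPM, and the part of free RNA in the change was not tested. Of 20 genes of the dissociation stress response, 9 were higher and 0 lower (median 0.49), beside the same 9.61%, and 2 of the 9 were called without each library in turn. Jun, 1 of the list, went from 499 and 557 CPM to 931 and 1090 CPM, with 820 CPM in the first WT library.

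Signalling genes moved singly. Axin2, a Wnt target, fell (86.9 and 74.6, 34.9 and 31.2, and 26.6 CPM; -1.17, edgeR adjusted p = 0.00532), while 2 of 38 Wnt genes were lower and 3 higher in all, no more than the 8.45% and 9.61% of all genes. At a Krt79 level of 10 or more 3 Wnt genes were lower and 1 higher, and in DESeq2 2 and 0 (5.88% and 7.73% of all genes). Hes1, a Notch target, was at 506 and 248, 110 and 148, and 91.7 CPM (-1.42) and the receptor gene Notch2 changed by -1.44, as 2 of 12 Notch genes, neither called without each library. Gas1, a Hedgehog coreceptor, rose by 0.88 (118 and 115, 191 and 203, and 166 CPM), Gli3 fell, and 9 of 11 Hedgehog genes did not pass. In the EGF receptor and Lrig list 3 of 14 were lower (Erbb3, Errfi1, Spry2) and 1 higher (Lrig1), and in the retinoid list 1 of 13 was lower (Rdh12). Of the 3 Grainyhead-like genes, Grhl1 was lower (-0.75). Of 10 hair matrix, 13 outer root sheath and 10 interferon genes, 0, 1 (Fzd7, higher) and 0 passed. In the inner root sheath list 3 of 7 were higher (Krt25, Krt71, Krt73), at 46.8 CPM or less. In the small proline-rich and stress keratin list 3 of 8 were lower (Krt16, Sprr1a, Sprr1b) and Sprr2a3, of a family with near-identical members, was higher at under 3 CPM. In the innate defence list 1 of 6 was lower (Defb6).

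Markers of other cells were present in Krt79 cells, most of all those of melanocytes in WT 1. The 7 melanocyte genes summed to 1103 and 455, 253 and 773, and 513 CPM, against 25840 CPM or more in melanocytes. Between genotypes 0 of 7 passed the test, beside 9.61% higher and 8.45% lower among all genes. Lists as short as those of this paragraph say little beside such shares. Dct alone was at 685 and 262, 132 and 385, and 146 CPM. Of 10 Langerhans cell or macrophage genes 0 passed (summed 151 and 197, 89.5 and 245, and 582 CPM). Of 5 T cell genes tested Cd3d was higher, of 3 Merkel genes Krt18 was lower, of 2 fibroblast genes 0 passed, and the haemoglobin genes Hba-a1 and Hbb-bs were higher, each of these at 5.55 CPM or less. Melanocyte or immune transcripts at 10 or more per 10,000 were held by 146 and 44, 18 and 53, and 43 Krt79 cells, with WT 1 apart from the others. Without these cells 1325 of 11888 genes were higher and 1252 lower, against 1173 and 1031 of 12202 with them.

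Whether the change differed from that of other Krt17 cells was tested with an interaction term, keeping the library as a block. It did for 76 of 13303 genes (0.571%), with 41 changes higher (0.308%) and 35 lower (0.263%) in Krt79 cells. The count depended on the libraries: it was 389 without WT 1, 239 without WT 2, 16 without Grhl3-/- 1, 7 without Grhl3-/- 2 and 3 with the first WT library added. In 6 of the 76 the call was made without each library in turn, among them Pthlh, Msmo1, Cgnl1, Igfbp2 and Ncam1. Pthlh rose in Krt79 cells, from 43.9 and 39.2 CPM to 91.8 and 107 CPM (1.37, edgeR adjusted p = 0.00303), but the first WT library lay above both Grhl3-/- libraries at 119 CPM. In other Krt17 cells it was at 26.7 and 22.3, 17.3 and 19.5, and 51.0 CPM (-0.30, edgeR adjusted p = 0.191). The ratios of Krt79 to other Krt17 cells were 1.64 and 1.76, 5.30 and 5.46, and 2.34 (difference of log2 changes 1.69, SE 0.10, edgeR adjusted p = 0.000812). The ratio, though not the level, of the first WT library was nearer to WT, and the difference was called with that library added. Lrig1 had ratios of 1.58 and 1.55, 2.33 and 2.54, and 1.76 (difference 0.67, SE 0.08, edgeR adjusted p = 0.0209), called in 2 of the 4 analyses that left out a library.

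Of the 37 lipid synthesis genes, 9 had a lower change in Krt79 cells than in other Krt17 cells and 0 a higher one, beside 0.263% lower among all genes. They were genes of cholesterol and fatty acid synthesis, among them Hmgcs1, Sqle, Idi1, Fdps, Cyp51, Msmo1 and Elovl6. All 9 rose in other Krt17 cells of Grhl3-/- by 1.05 to 2.23 on the log2 scale. In Krt79 cells only Idi1 and Fdps were called higher, which does not mean that the rest were unchanged there. Msmo1, a sterol demethylating enzyme, was at 55.3 and 55.2, 44.7 and 63.3, and 80.6 CPM in Krt79 cells and at 19.8 and 17.8, 42.0 and 65.8, and 51.5 CPM in other Krt17 cells (difference -1.51, SE 0.11, edgeR adjusted p = 0.00206). Msmo1 alone was called without each library in turn. The ratio of the first WT library was nearer the WT than the Grhl3-/- ratios for 2 of the 9, Elovl6 among them.

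**Figure D5:**
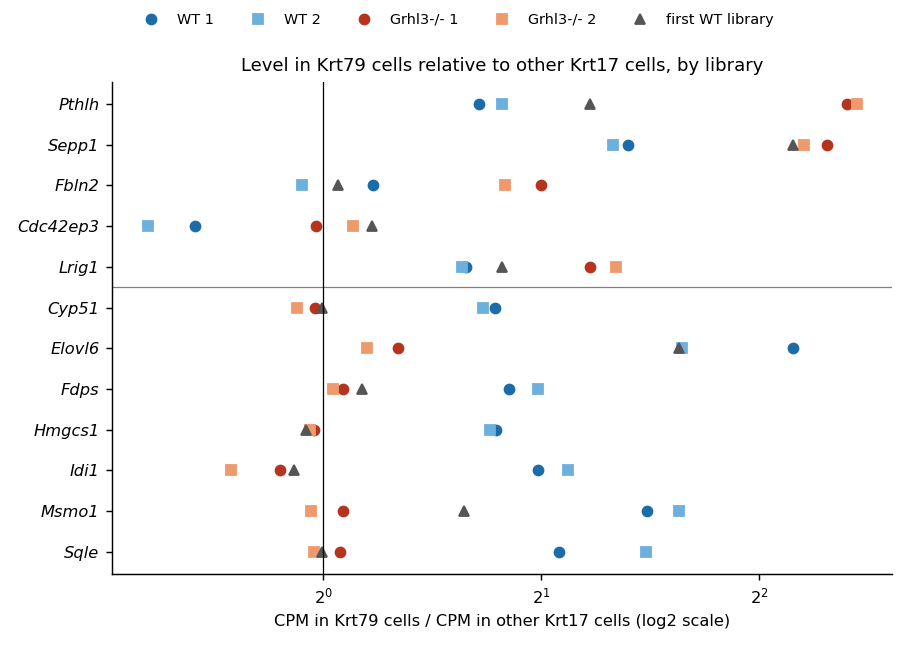
Ratio of CPM in Krt79 cells to CPM in other Krt17 cells (log2 axis) for 12 genes, one mark per P0 library. Pthlh lies higher in both Grhl3-/- libraries than in all 3 WT libraries, while the lipid synthesis genes below the line lie lower in both than in the 2 WT libraries of the same chemistry.

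Against interfollicular keratinocytes the change differed for 246 of 12294 genes (2%), 92 higher (0.748%) and 154 lower (1.25%) in Krt79 cells, and for 492 without Grhl3-/- 1 and 1801 without Grhl3-/- 2. Psapl1 was at 108 and 166, 53.4 and 48.4, and 129 CPM in Krt79 cells and at 130 and 158, 10.3 and 18.2, and 80.3 CPM in interfollicular keratinocytes (difference 2.16, edgeR adjusted p = 0.0184). Crip2 had a difference of the same sign (2.60, edgeR adjusted p = 0.00775). S100a6 was at 537 and 552, 714 and 719, and 413 CPM in Krt79 cells and at 86.3 and 86.7, 396 and 488, and 274 CPM in interfollicular keratinocytes, where the first WT library lay between the groups (difference -1.80, edgeR adjusted p = 0.00775). Cell cycle genes made 18 of the 154, of 36 tested. The interfollicular class itself differed between genotypes. After thinning, Mki67 was detected in 3.84% and 5.77%, 9.42% and 10.8%, and 3.81% of its cells. Its Krt10 was at 18743 and 20637, 7165 and 13184, and 27009 CPM. The part of the make-up of this class in these differences was not tested. Of 27 spinous and granular genes 2 had a higher and 0 a lower change in Krt79 cells.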

How the data were processed

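Single-cell 3' RNA libraries (10x Genomics) of mouse back epidermis or skin were analysed. The deposited matrices hold raw UMI counts per gene and cell barcode, made by the authors with Cell Ranger against mm10 (version 1.3.1 in the submitters' processing notes) before their filters on cells and genes. Deposited barcodes were taken as cells, and 27998 gene identifiers were read.

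The limits on genes, which differed between P0 and the embryonic ages, on mitochondrial UMIs and the rule for Krt79 cells are those given in the report. The members and the 27 gene lists were chosen with earlier results of these data known. The UMIs of each class were summed per library. Genotypes and interactions were tested with edgeR 4.0.16 (filterByExpr, TMM, quasi-likelihood test, Benjamini-Hochberg over all genes tested, threshold 0.05), in R 4.3.3. The interaction model was library plus class plus class by genotype. DESeq2 1.42.0 was an alternative. The test of genotype was tried on simulated counts of 12032 genes, with each size of change given to 100 genes. It recovered 97% of changes of 1 and 100% of changes of 2 on the log2 scale. There were 10 false calls among 11832 unchanged genes. Simulated counts hold only the spread they were drawn with, so these values do not give the rate of false calls in the real libraries. In those, 0 genes were called with the first WT library added. Shares were tested by an exact permutation test, with exact Clopper-Pearson intervals.

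Genes named are the 10 highest and 5 lowest median ratios in each comparison of classes, the 8 in each direction for the tertiles, the 10 largest changes in each direction for genotype and the 5 for each interaction. Genes named for a change also had a mean level of 5 or more on the log2 CPM scale, with no overlap of the groups. Members of the gene lists were named too. A few genes under these rules are not reported here. The study's methods call the 2 libraries per group biological replicates from littermates, so p-values measure the spread within a litter. Doublets were scored with Scrublet in scanpy 1.11.5, which called only 2 to 6 cells a library. As an alternative the cells with the highest scores were removed at 0.8% per 1000 cells (205 to 671 cells a library, among them 4.99% to 8.52% of the Krt79 cells). The authors of the study removed genes seen in few cells, which was not done here. Promoter sequences are from RefSeq, build GRCm38.p6, and 9233 of 12202 genes tested matched by symbol.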

Additional observations from a re-analysis of the deposited data

Results flagged for a closer look

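Several genes had a change between Grhl3-/- and WT that differed between Krt79 cells and another class in the edgeR test of the difference. Against other Krt17 cells the difference of log2 changes (Krt79 cells minus the other class) was 1.69 for Pthlh, 0.927 for Sepp1, 0.871 for Fbln2 and 0.774 for Cdc42ep3. On the lower side it was -1.35 for Idi1, -0.829 for Gt(ROSA)26Sor, -0.827 for Fdps and -0.814 for Ppa1. Of these genes Pthlh alone was called without each of the 4 libraries in turn and with the first WT library added.

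Against interfollicular keratinocytes the difference was 2.6 for Crip2, 2.56 for Agpat4, 2.56 for Me1 and 2.16 for Psapl1. It was -3.15 for Tpm2, -2.48 for Cald1, -1.92 for Capns1, -1.8 for S100a6 and -1.74 for Idh1.

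Outside the comparisons, E14.5 Grhl3-/- 2 held 13 cells within the Krt79 limits (0.187% of its kept cells), against 2 and 0 in the WT libraries and 1 in E14.5 Grhl3-/- 1.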

How the results depend on the processing

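The share of Krt79 cells and the 20 named genes kept their direction under every alternative run, but some gene lists did not. Wnt genes, 3 higher and 2 lower, were 1 and 3 at a Krt79 level of 10 or more, 4 and 5 in cells low in Krt1 and Krt10, and 0 and 2 in DESeq2. Lipid synthesis genes, 4 higher and 7 lower (median -0.03), were 5 and 3 (0.08) and 7 and 3 (0.01) in the first pair of these, and retinoid genes, 0 and 1, were 3 and 2 in cells low in Krt1 and Krt10. With the first WT library added the median of hair matrix genes went from -0.17 to 0.12, of Langerhans cell genes from 0.11 to -0.81 and of T cell genes from 0.37 to -0.07. The medians of the Hedgehog, interferon, Merkel cell, fibroblast, innate defence and melanocyte lists, with 0 to 2 genes called, also changed sign in at least 1 alternative. The share of Krt79 cells was lower in Grhl3-/- in every setting, by 2.9 to 5.22 percentage points (values of -2.9 to -5.22) without each library in turn. Counts of genes called between genotypes stayed within 1.5 times under DESeq2, RLE scaling and libraries reduced to the same number of summed UMIs. These counts also did so under stricter Krt79 and Krt17 limits, a 5% mitochondrial limit, removal of doublets and the 3 further limits on cells added after seeing the data. They were 0 higher and 0 lower without a filter on low counts and 0 and 0 with the first WT library, and 306 to 857 higher and 241 to 763 lower without each library in turn. Of 340 values of the 20 named genes, 45 lost the call and 295 kept it. Between replicates of the same number the deviations did not go together (r = -0.143 across 3953 genes, which are not independent). With 2 libraries per group the deviations of the replicates mirror each other. This single value therefore cannot decide whether the numbers pair the samples. The fit with the replicate block called 1259 higher and 1197 lower, and the crossed pairing, added after seeing the data, 1181 and 1137.

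Differences against other Krt17 cells numbered 179 with no filter, 3 with the first WT library and 7 to 389 without each library in turn. Against interfollicular keratinocytes they numbered 978 with no filter and 253 to 1801 without each library in turn. The cause of these changes was not tested.

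Among comparisons of classes, genes lower than in other Krt17 cells numbered 1 to 4 without each library in turn. Against interfollicular keratinocytes 144 were higher at 20 CPM or more, 202 higher and 127 lower in WT libraries only, and 88 to 146 higher and 59 to 100 lower without each library in turn. Against Scd1 cells 207 were higher in WT libraries only. Between tertiles 25 were higher and 2 lower with CPM + 1, 42 higher in WT libraries only, 2 lower without doublets, and 15 to 30 higher and 1 to 4 lower without each library in turn. Fewer libraries must pass the limit when WT libraries alone are used or a library is left out. Precision is limited by the 2 libraries per genotype and, against Scd1 cells, by their 185 cells.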

Other observations

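Krt79 cells at E16.5, 55 and 44 in WT and 30 and 33 in Grhl3-/- libraries of whole skin, held Lrig1 at 79.2 and 61.5 CPM in WT and 81.8 and 102 CPM in Grhl3-/-. Alcam was at 519 and 750 CPM and at 622 and 344 CPM, and Alox12e at 109 and 161 CPM and at 218 and 49.2 CPM. Defb6 had 0 UMIs in all 4 libraries, and Cidea had 0 and 2 UMIs in WT and 2 and 0 in Grhl3-/-. The values of Lrig1, Alcam and Alox12e rest on 13 to 317 UMIs a library and were not tested.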
